A study of Mus musculus with 16 samples.

Results

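The 10 genes described here encode MHC class I molecules and the machinery that loads them with peptide: the heavy chains H2-K1, H2-D1, H2-Q4, H2-Q6, H2-Q7, H2-T22 and H2-T23, the light chain B2m, the peptide transporter subunit Tap1 and the loading chaperone Tapbp (tapasin). They were taken by gene name, although with earlier results of these data known, and all 10 were found among the 56748 genes of the tables. The cells were memory CD4+ T cells, defined by the surface markers CD4+CD25low/-CD62L-CD44high and sorted after depletion of other cells from spleens of male mice aged 6 to 12 weeks, which were kept on a mixed genetic background. There were 4 samples in each of 4 groups. In the HP1α line, the Hp1a gene had been excised by a CMV-cre transgene, which acts in all tissues, and homozygous KO mice were compared with WT littermates from crosses of heterozygotes. In the HP1γ line, both KO and WT littermates were homozygous for the floxed Hp1g allele and the KO also carried a Cd4-cre transgene, which acts from the thymus on in T cells. An effect of Cre cannot be told apart from that of the lost gene in this line. A treatment label of the deposited samples speaks of transferred cells, does not match the published account of the sorted memory cells and was not used. HP1α and HP1γ, encoded by Cbx5 and Cbx3, bind methylated histone H3 and help to keep heterochromatin silent.

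Class I molecules stand on the surface of nearly all nucleated cells, T cells included, and show peptides made from the cell's own proteins to CD8+ T cells and NK cells. The proteasome cuts the peptides, the TAP transporter carries them into the endoplasmic reticulum, tapasin holds an empty class I molecule beside the transporter, and the heavy chain leaves for the surface only once it is paired with B2m and peptide. H2-K1 and H2-D1 are the classical heavy chains that vary most between mouse strains, whereas the H2-Q and H2-T genes encode the less variable non-classical ones. H2-T23 encodes Qa-1, which presents leader peptides of other class I molecules and is read by the inhibitory receptor NKG2A. Interferon and the transactivator NLRC5 raise most of these genes together.

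The heavy chain genes are near copies of each other, which limits how well short reads can be divided between them. In the GRCm39 build of the mouse genome, 9 of the 10 genes lie on chromosome 17, from Tapbp (chr17:34134873-34148267, plus strand) and H2-K1 (chr17:34214987-34219321, minus strand) over Tap1 (chr17:34405996-34416199), H2-D1 (chr17:35481691-35486475), H2-Q4, H2-Q6 and H2-Q7 (chr17:35598586-35662749 in all) to H2-T23 (chr17:36340229-36345571) and H2-T22 (chr17:36348020-36353650). B2m lies apart on chromosome 2 (chr2:121977957-121983594). The first 60 bases of exon 2, which codes for the first peptide-binding domain, are shown for the 5 heavy chains whose exon 2 has the same length, 270 bases, with capitals for each base that differs from H2-K1. The stretches are chr17:34218918-34218977 (minus strand), chr17:35482355-35482414, chr17:35644084-35644143, chr17:35658428-35658487 and chr17:36343255-36343314 (minus strand), in this order.
H2-K1: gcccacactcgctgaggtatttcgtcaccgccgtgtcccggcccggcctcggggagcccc
H2-D1: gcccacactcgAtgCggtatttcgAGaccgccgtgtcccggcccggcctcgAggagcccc
H2-Q6: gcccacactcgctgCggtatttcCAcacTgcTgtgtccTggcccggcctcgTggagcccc
H2-Q7: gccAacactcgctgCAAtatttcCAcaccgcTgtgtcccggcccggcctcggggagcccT
H2-T23: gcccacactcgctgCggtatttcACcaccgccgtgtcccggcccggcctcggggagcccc
Over the whole exon, H2-D1 was identical to H2-K1 at 91.1% of the bases, H2-Q6 at 88.1%, H2-Q7 at 87.8% and H2-T23 at 86.7%, and H2-Q6 and H2-Q7 were identical to each other at 93%. Among all sequences of 31 bases in each gene's main transcript, 23.5% also occurred in transcripts of other genes for H2-K1, 28.5% for H2-D1, 43.9% for H2-Q4, 51.2% for H2-Q6, 53.7% for H2-Q7, 49% for H2-T23 and 61.3% for H2-T22. With H2-T10 alone, H2-T22 shared 54.1% of its sequences of this length. The share was 0% for B2m, 1.43% for Tap1 and 4.34% for Tapbp. Values of the H2-Q and H2-T genes are therefore estimates that rest on how shared reads were divided by the authors, which was not checked here.

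The 250 bases before the transcription start are shown for H2-K1, as the most abundant member, and for H2-T23, B2m and Tap1, the members whose levels differed between groups by test. They come from RefSeq promoters of the older build GRCm38.p6, in which all 10 members were matched by symbol, and lie at chr17:34000348-34000597 (minus strand), chr17:36032702-36032951 (minus strand), chr2:122147437-122147686 and chr17:34187306-34187555. Capitals mark every match, on either strand, to 4 motifs: a kB site GGGGNTTCC, an interferon regulatory factor element TTTCNNTT, the CRE-like box TGATGAC of the class I SXY module, and the CCAAT box.
H2-K1: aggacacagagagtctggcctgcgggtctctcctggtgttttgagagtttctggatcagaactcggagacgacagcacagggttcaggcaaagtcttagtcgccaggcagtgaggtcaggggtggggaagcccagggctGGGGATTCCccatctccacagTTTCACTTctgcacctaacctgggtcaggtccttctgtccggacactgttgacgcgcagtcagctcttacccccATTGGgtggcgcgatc
H2-T23: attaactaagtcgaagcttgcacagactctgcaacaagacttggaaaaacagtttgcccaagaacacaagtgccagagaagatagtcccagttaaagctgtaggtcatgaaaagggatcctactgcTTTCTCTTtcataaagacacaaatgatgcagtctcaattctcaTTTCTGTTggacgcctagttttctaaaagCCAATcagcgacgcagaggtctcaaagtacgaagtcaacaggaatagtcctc
B2m: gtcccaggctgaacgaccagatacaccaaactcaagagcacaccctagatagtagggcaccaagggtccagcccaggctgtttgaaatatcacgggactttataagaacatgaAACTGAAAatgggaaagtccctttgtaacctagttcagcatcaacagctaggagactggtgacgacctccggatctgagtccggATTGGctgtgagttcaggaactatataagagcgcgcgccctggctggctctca
Tap1: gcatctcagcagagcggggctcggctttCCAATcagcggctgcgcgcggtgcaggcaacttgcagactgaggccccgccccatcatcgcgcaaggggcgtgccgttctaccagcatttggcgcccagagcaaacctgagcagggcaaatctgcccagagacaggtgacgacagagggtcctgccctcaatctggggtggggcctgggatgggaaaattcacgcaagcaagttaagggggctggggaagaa
All 7 heavy chains and B2m held the interferon regulatory factor element in this window, which 21.6% of 27025 promoters held, and neither Tap1 nor Tapbp did. The kB site, held by 1.38% of promoters, was found in H2-K1, H2-D1, H2-Q6 and H2-Q7, and the CRE-like box, held by 2.77%, in H2-D1, H2-Q4, H2-Q6, H2-Q7 and H2-T22. CCAAT, held by 34.5% of promoters, was found in all 10. No match overlapped that of another motif in the members. A match is a run of letters and not evidence that a factor binds there.

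Class I genes were among the most abundant transcripts of these cells, and the 10 members took between 1.201% and 1.364% of a sample's counts (median 1.294%). On the TPM scale, which corrects for transcript length, H2-K1 was the highest member with a mean of 7766 ± 520 (SD, n = 16), rank 5 of all 56748 genes. B2m followed at 3804 ± 456 TPM and H2-D1 at 2618 ± 203 TPM. The non-classical heavy chains were lower, with H2-Q7 at 962 ± 72.7 TPM, H2-Q4 at 787 ± 60.8 TPM, H2-Q6 at 619 ± 50.9 TPM, H2-T23 at 335 ± 21.5 TPM and H2-T22 at 198 ± 13.1 TPM. Of the loading genes, Tapbp stood at 309 ± 29.3 TPM and Tap1 at 202 ± 21.9 TPM. The order H2-K1, B2m, H2-D1, H2-Q7, H2-Q4, H2-Q6 held in every one of the 16 samples. By contrast, H2-T23 was above Tapbp in 14 of 16 samples and Tap1 above H2-T22 in 8 of 16, so that these neighbours were not separated by more than their spread. Levels varied little between samples: the highest of the 16 normalised counts was 1.45 times the lowest for B2m, the widest range of the 10, and 1.16 times for H2-K1, the narrowest.

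**Figure D1:**
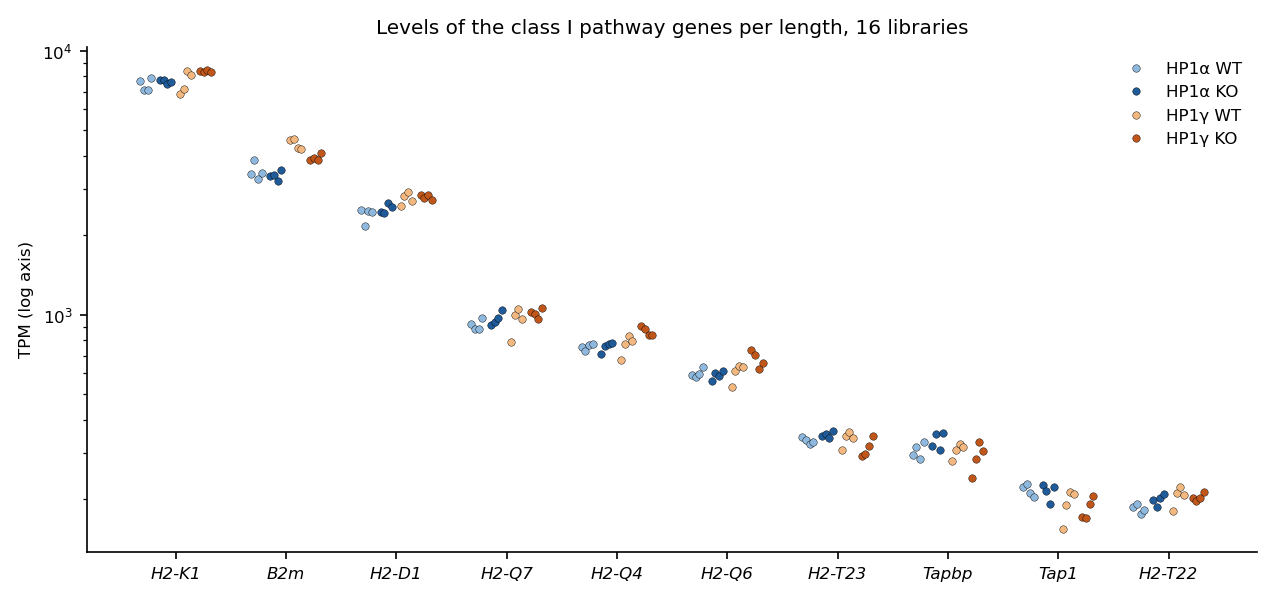
TPM of each gene (log axis) in all 16 samples, 4 points for each of the 4 groups, with genes ordered by their mean. Means run from 7766 TPM for H2-K1 to 198 TPM for H2-T22, and the groups of any gene lie close together on this scale.

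Sequencing depth was between 26694045 and 40199637 estimated counts per sample (median 32360727). Taken over all genes, replicates differed by more than sampling noise, but counting error was not compared with the spread of each gene. Values of single samples below are CPM (counts scaled to a common library size, after TMM normalization over the 16 samples) in the order of the replicate numbers. Cbx3 fell in the HP1γ KO (45.89 to 50.28 CPM against 73.39 to 92.47 CPM, log2 fold change -0.82, adjusted p = 0.0015 by edgeR's quasi-likelihood test). Cbx5 was between 23.05 and 29.03 CPM in the HP1α KO and between 33.8 and 54.05 CPM in its WT littermates, without overlap (adjusted p = 0.946 by the same test). These RNA counts do not measure the protein. For naive CD4+ T cells, the paper reports from western blots that HP1α was fully absent in its KO and HP1γ almost fully lost. Summed CD4+ T cell markers were between 4945 and 5589 CPM in all groups and summed CD8 markers at most 18.48 CPM. Other cells left traces that differed from sample to sample: the 11 B cell markers summed to between 161.1 and 830.7 CPM, overlapping between all groups. The 5 erythroid markers summed to 1008, 1201, 81.89 and 835.6 CPM in the HP1γ KO and to between 16.43 and 543.2 CPM elsewhere. Summed naive T cell markers were higher in every HP1α KO sample (1839 to 1954 CPM) than in any of its WT littermates (1658 to 1797 CPM) or any HP1γ KO sample (1705 to 1825 CPM). The part of these cells in the class I values was not tested, and in sorted bulk samples a change in the make-up of the cells cannot be told apart from a change per cell. Replicates are those of the submitters' labels, and where they share a mouse or a sort, p-values measure only the spread between these samples. In both groups of the HP1γ line, replicates 1 and 2 were more like each other than like 3 or 4. Replicates 3 and 4 were likewise more like each other, and what each set shares was not tested.

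No class I member differed by test between HP1α KO cells and their WT littermates. Of the 10 members, 0 passed an adjusted p under 0.05 and 0 reached an unadjusted p under 0.05, and KO and WT values overlapped for every member. Across all 14881 genes tested, 0% were called by adjusted p, 4.27% had an unadjusted p under 0.05 and 2.96% had groups that did not overlap (DESeq2 called 5 genes, none of them a member). The largest member difference was that of H2-T22, which read 208.1, 193.1, 223.8 and 216.8 CPM in the HP1α KO and 195.3, 195.8, 195.7 and 193.0 CPM in WT. Its log2 fold change was 0.11 ± 0.0535 (SE, adjusted p = 0.946). H2-K1 read 4010, 3954, 4183 and 3957 CPM in the KO against 3887, 3597, 3898 and 4073 CPM in WT (log2 fold change 0.06 ± 0.05). For H2-D1, the KO samples stood at 2760, 2749, 3182 and 2879 CPM and the WT samples at 2819, 2372, 2958 and 2796 CPM. B2m read 1533, 1536, 1577 and 1606 CPM in the KO and 1552, 1698, 1579 and 1606 CPM in WT (log2 fold change -0.04 ± 0.0464). The remaining members had log2 fold changes between -0.03 and 0.08. The 95% confidence intervals of the 10 members lay between -0.158 and 0.246 on the log2 scale.

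**Figure D2:**
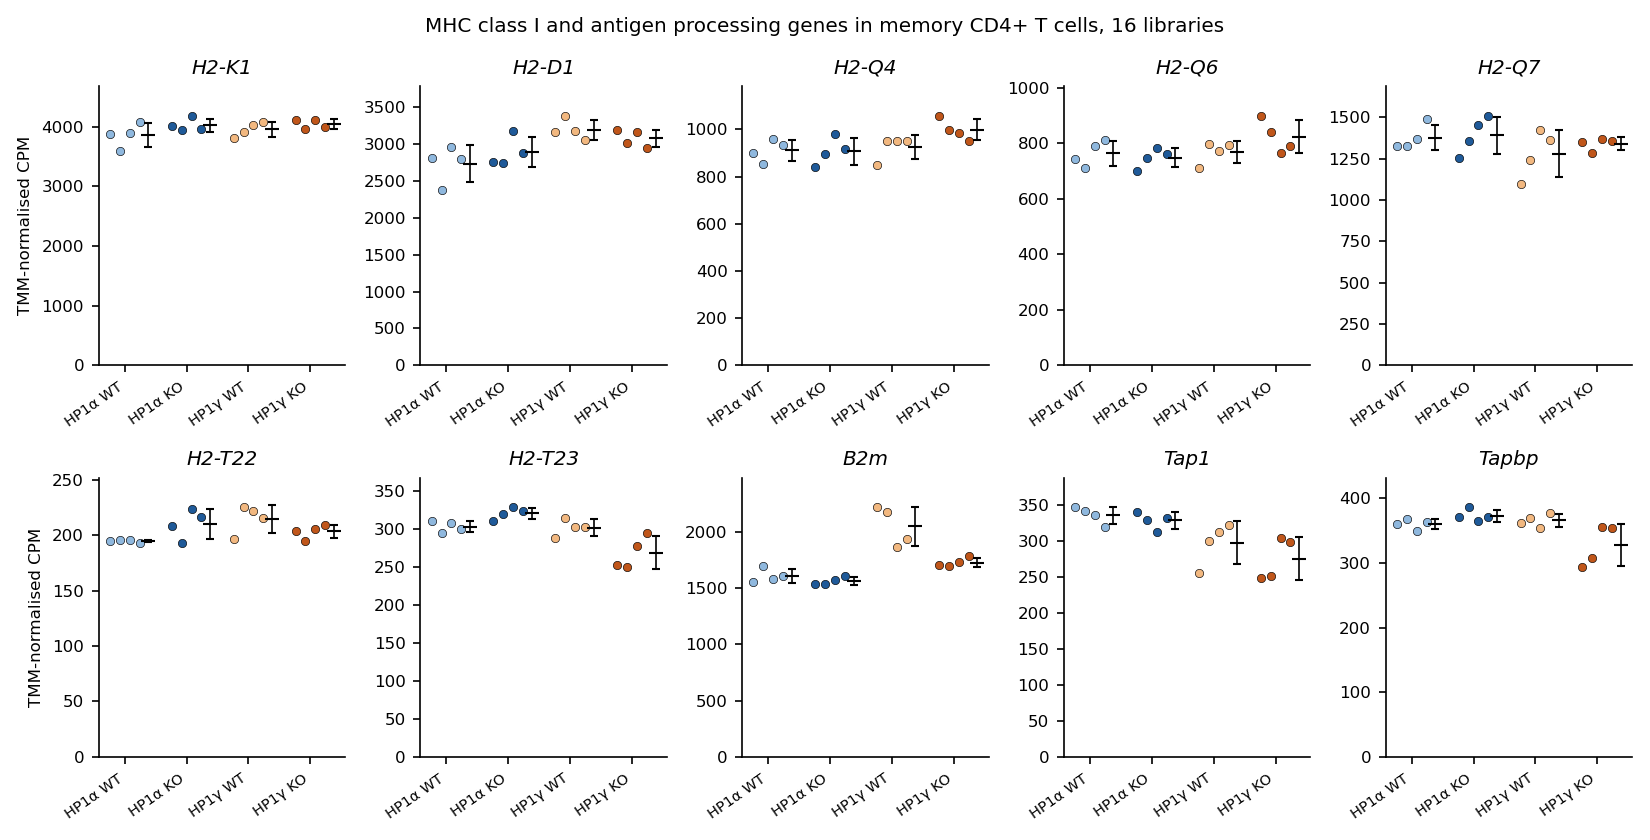
TMM-normalised CPM of the 10 genes by group, with 1 point per sample in the order of the replicate numbers and the mean ± SD (n = 4) to the right of each group; axes start at 0. B2m is highest in HP1γ WT, and the first 2 HP1γ KO samples are low in H2-T23, Tap1 and Tapbp.

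Between HP1γ KO cells and their WT littermates, members differed by small amounts in both directions, and none passed the adjusted threshold. B2m read 1703, 1696, 1729 and 1782 CPM in the HP1γ KO and 2218, 2173, 1865 and 1940 CPM in its WT littermates. The groups did not overlap, and the first 2 WT samples were the farthest above the KO. The log2 fold change was -0.24 ± 0.0665 (unadjusted p = 0.00491 by edgeR), and the adjusted p was 0.244 (0.0567 to 0.496 under the alternatives). Of all 14975 genes tested, 0.327% passed the adjusted threshold and 7.10% did not overlap between the groups, against 0 and 1 of the 10 members. H2-T23 read 253.0, 249.5, 278.0 and 294.7 CPM in the KO and 287.7, 314.5, 302.8 and 301.9 CPM in WT (log2 fold change -0.16 ± 0.0684, unadjusted p = 0.0429 and adjusted p = 0.403 by edgeR). Its highest KO sample lay above the lowest WT sample. Among the loading genes, which passed neither threshold, log2 fold changes were -0.15 ± 0.073 for Tapbp and -0.10 ± 0.0952 for Tap1. In the HP1γ KO, the first 2 samples were the lowest of all 16 for Tapbp (293.3 and 308.3 CPM) and for Tap1 (249.0 and 250.7 CPM), while the other two stood at 355.6 and 354.2 CPM and at 303.3 and 298.2 CPM. These 2 samples also held the largest summed erythroid markers. Replicates 3 and 4, close to each other in Tapbp and Tap1, held 81.89 and 835.6 CPM of these markers. The part of those cells in the values was not tested.

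On counts, the abundant heavy chains had log2 fold changes nearer to 0 than B2m. With limma on log2(TPM + 1), values were 0.14 for H2-K1, 0.03 for H2-D1 and 0.17 for H2-Q4, against -0.17 for B2m. None of these passed the adjusted threshold. The median of all genes moved by 0.0616 on the log2 scale between counts and TPM. The values that follow are on counts. H2-K1 had 4119, 3970, 4109 and 3994 CPM in the HP1γ KO and 3807, 3919, 4024 and 4080 CPM in WT (log2 fold change 0.04 ± 0.0516), and H2-D1 differed by -0.05 ± 0.0566. H2-Q4 stood at 1057, 998.1, 984.2 and 950.6 CPM in the KO against 847.2, 952.0, 950.0 and 950.5 CPM in WT (log2 fold change 0.12 ± 0.0638, adjusted p = 0.491). H2-Q6 and H2-Q7 differed by 0.11 ± 0.0701 and 0.07 ± 0.0821 on the log2 scale, and all H2-Q genes counted as 1 feature by 0.10 ± 0.0676 (adjusted p = 0.586). The 95% confidence intervals of the 10 members lay between -0.385 and 0.264. Summed over the 7 heavy chains, levels were 11070, 10560, 10880 and 10540 CPM in the KO and 10110, 10830, 10870 and 10770 CPM in WT, overlapping. B2m counts per heavy chain count, a measure chosen after B2m was seen to differ, were 0.1538, 0.1606, 0.1589 and 0.1691 in the KO and 0.2194, 0.2005, 0.1716 and 0.1802 in WT, without overlap.

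**Figure D3:**
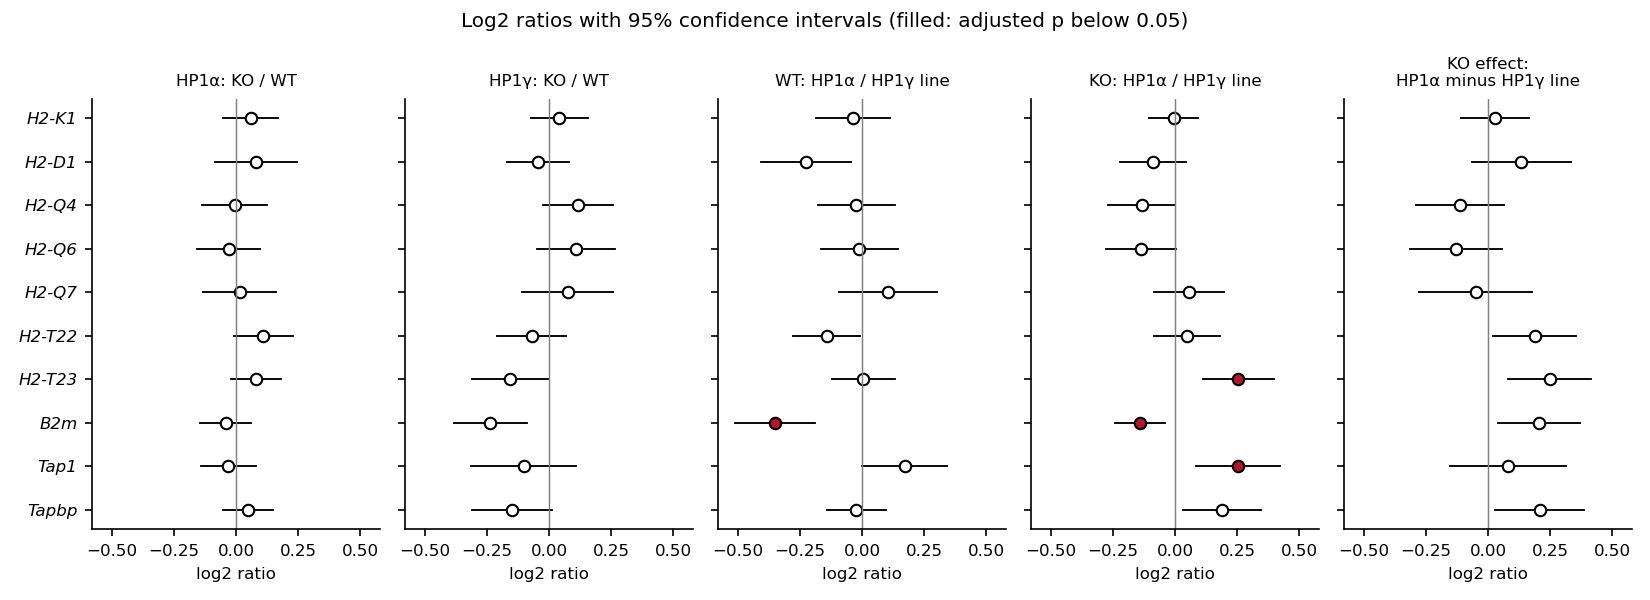
Log2 ratio of each gene (points) with its 95% confidence interval (lines) in the 5 comparisons; filled points have an adjusted p under 0.05. Filled points are B2m between WT lines and H2-T23, B2m and Tap1 between KO lines, and no point is filled for KO against WT.

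The WT littermates of the 2 lines were compared to measure how far cells of separately bred lines differ. Line, batch and breeding cannot be told apart in this comparison, and the tables hold counts per gene and no alleles. B2m was lower in the HP1α line, with 1552, 1698, 1579 and 1606 CPM against 2218, 2173, 1865 and 1940 CPM in HP1γ WT. The groups did not overlap, the log2 difference was -0.35 ± 0.0729 and the adjusted p was 0.0151 by edgeR. The call was lost without HP1α WT replicate 1 (adjusted p = 0.0599) and without HP1γ WT replicate 2 (adjusted p = 0.0592), with log2 differences of -0.33 and -0.32, and in a fit with a replicate block (-0.35, adjusted p = 0.0557). B2m was the 1 member called of 10, where 12.8% of the 14804 genes tested were called, 4.55% higher and 8.25% lower in the HP1α line (on the TPM scale 249 higher and 886 lower, against 674 and 1222 on counts). A share of 1 in 10 is close to this background.

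Among the heavy chains, H2-D1 read 2819, 2372, 2958 and 2796 CPM in HP1α WT and 3167, 3383, 3178 and 3061 CPM in HP1γ WT, again without overlap. Its log2 difference of -0.23 ± 0.0825 had an adjusted p of 0.0954, and it passed the threshold with DESeq2 (0.0405) and in a fit of all 16 samples (0.0314). H2-T22 was also lower without overlap, at 193.0 to 195.8 CPM against 196.6 to 225.3 CPM (log2 difference -0.14 ± 0.0615, adjusted p = 0.148). With B2m, that made 3 of 10 members without overlap, against 19.5% of all genes. An unadjusted p under 0.05 was also reached by 3 of 10 members and by 29.9% of all genes. H2-K1, the other classical heavy chain and the neighbour of Tapbp, differed by -0.04 ± 0.0679 (95% confidence interval -0.186 to 0.114). H2-Q4, H2-Q6, H2-T23 and Tapbp had log2 differences between -0.02 and 0.00, and H2-Q7 one of 0.10 ± 0.0897. Tap1 had its higher mean in the HP1α line, at 346.3, 341.4, 335.2 and 318.5 CPM in HP1α WT and 255.1, 299.6, 312.7 and 321.9 CPM in HP1γ WT (0.17 ± 0.0783, adjusted p = 0.172), and the groups overlapped.

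Between the knockouts of the 2 lines, the lost gene cannot be told apart from line, batch, breeding and Cre transgene. In this comparison, H2-T23 and Tap1 were higher and B2m lower in the HP1α KO. This share of 3 in 10 members was close to the background, since 32.8% of 15020 genes were called, 2399 of them higher and 2522 lower in the HP1α KO (on the TPM scale 1159 and 2234). H2-T23 read 309.9, 319.9, 328.3 and 323.5 CPM in the HP1α KO and 253.0, 249.5, 278.0 and 294.7 CPM in the HP1γ KO, without overlap (log2 difference 0.26 ± 0.064, adjusted p = 0.0134). Tap1 read 339.9, 328.5, 312.3 and 332.2 CPM against 249.0, 250.7, 303.3 and 298.2 CPM, also without overlap (0.26 ± 0.0764, adjusted p = 0.0276). B2m had 1533 to 1606 CPM in the HP1α KO and 1696 to 1782 CPM in the HP1γ KO (-0.14 ± 0.0456, adjusted p = 0.0359). Tapbp, at 364.6 to 386.1 CPM against 293.3 to 355.6 CPM, was the fourth member without overlap (0.19 ± 0.071, adjusted p = 0.0645), where 32.3% of all genes did not overlap.

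Of these calls, that of H2-T23 held when any sample was left out. With all H2-T genes counted as 1 feature, however, the log2 difference was 0.14 ± 0.0544 and missed the threshold (adjusted p = 0.0676 by edgeR). Tap1 lost its call without HP1α KO replicate 1, 2 or 4 or HP1γ KO replicate 1 or 2 (adjusted p = 0.0637 to 0.0821), and B2m without any single sample other than HP1α KO replicate 3 (adjusted p = 0.0518 to 0.111). A replicate block also ended the calls of Tap1 (adjusted p = 0.0542) and B2m (adjusted p = 0.0672). Counts and TPM gave different members here. With limma on log2(TPM + 1), H2-T23 (0.17, adjusted p = 0.0721) and Tap1 (0.21, adjusted p = 0.079) missed the threshold. B2m was also lower in the HP1α KO on that scale (-0.22, adjusted p = 0.00691), and H2-K1 (-0.13, adjusted p = 0.0208), H2-D1 (-0.15, adjusted p = 0.0288), H2-Q4 (-0.19, adjusted p = 0.0203) and H2-Q6 (-0.21, adjusted p = 0.0336) passed it as well. The median of all genes moved by -0.0601 on the log2 scale between counts and TPM, and that of the members by -0.0728. On counts, the log2 differences of these 4 heavy chains were -0.01 ± 0.0449, -0.09 ± 0.0605, -0.14 ± 0.0611 and -0.14 ± 0.0642, with adjusted p-values between 0.111 and 0.929.

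Whether loss of HP1α and loss of HP1γ had unequal effects was tested with an interaction term over all 16 samples. Of 15776 genes, 8 were called (0.0507%), and 0 of the members. At an unadjusted p under 0.05, 4 of 10 members differed, where 9.58% of all genes did. The effect of HP1α loss minus that of HP1γ loss was 0.25 ± 0.0786 on the log2 scale for H2-T23 (unadjusted p = 0.00604 and adjusted p = 0.384 by edgeR), 0.20 ± 0.0789 for B2m (adjusted p = 0.445), 0.21 ± 0.0843 for Tapbp (adjusted p = 0.46) and 0.19 ± 0.079 for H2-T22 (adjusted p = 0.469). DESeq2, which called 72 genes of the interaction, called none of the members either.

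B2m is described further because it is the member with no shared sequence and the 1 that was called between lines in both genotypes. HP1γ WT had the highest B2m level of the 4 groups, 2049 ± 173 CPM (SD, n = 4), against 1727 ± 39.4 CPM in the HP1γ KO, 1609 ± 63.5 CPM in HP1α WT and 1563 ± 34.9 CPM in the HP1α KO. Group means of the summed heavy chains were between 10150 and 10760 CPM, and their samples overlapped in every comparison on this scale. On the TPM scale they did not overlap between knockouts, at 12910 to 13200 TPM in the HP1α KO and 14140 to 14380 TPM in the HP1γ KO. B2m per heavy chain count was between 0.1417 and 0.1521 in the HP1α KO and between 0.1507 and 0.1817 in HP1α WT. The highest of these, HP1α WT replicate 2, was also the sample with the lowest summed heavy chains (9346 CPM), and its group then overlapped with HP1γ WT (0.1716 to 0.2194).

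**Figure D4:**
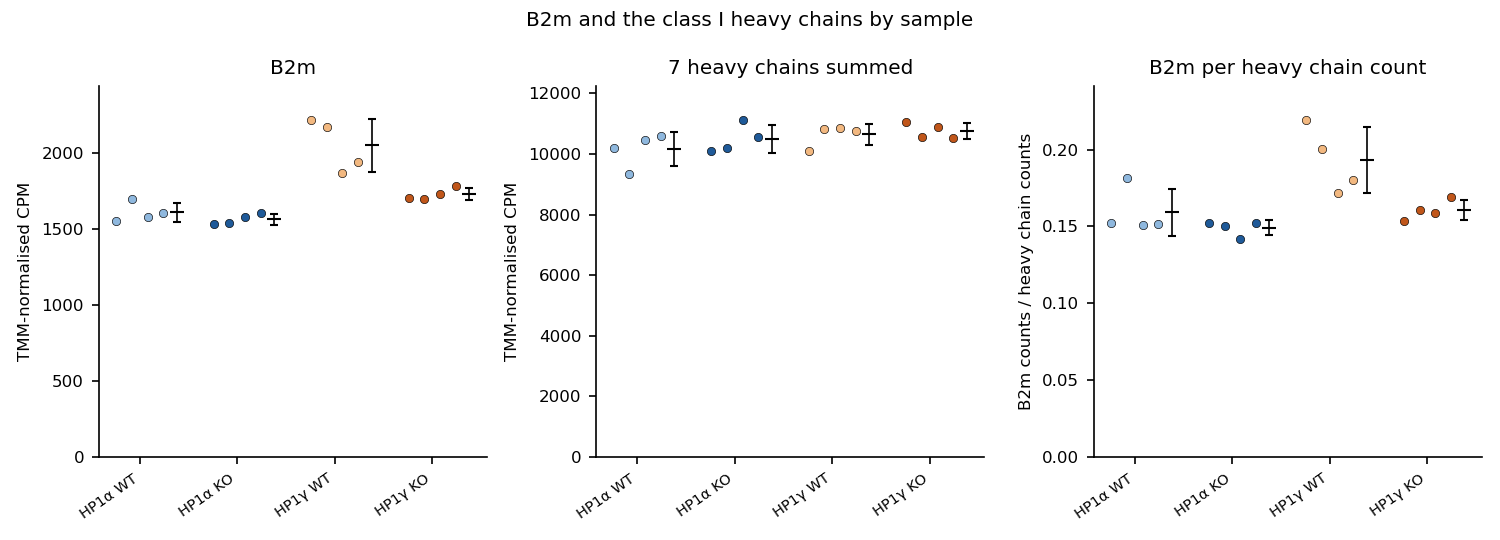
B2m (left), the 7 heavy chains summed (middle; both in TMM-normalised CPM) and B2m counts divided by heavy chain counts (right) by group, with 1 point per sample and the mean ± SD (n = 4). HP1γ WT stands highest for B2m and for the ratio, while the summed heavy chains of the 4 groups overlap on the CPM scale.

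Members that move together within groups were looked for in the deviations of the 16 samples from their group means. The 45 pairs of members had Pearson correlations between -0.57 and 0.89 (median 0.22). H2-Q4 and H2-Q6, which share sequence, were the most alike (0.89), and Tap1, Tapbp and H2-T23 formed another set with correlations between 0.68 and 0.69. B2m ran against H2-K1 (-0.56) and H2-Q7 (-0.48). Outside the group, the genes whose deviations were most like the members' mean were Lrp5 (r = 0.90), Gm20234 (r = 0.90), Arsg (r = 0.89), Anapc7 (r = 0.89) and Macroh2a1 (r = 0.88), over 16 samples. They were picked as the highest of 15766 genes compared. Their Spearman correlations were between 0.72 and 0.89, and r was between 0.80 and 0.85 without the 2 samples farthest from the middle. Libraries and their depth are shared by all these points, and no test was made of them.

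The rest of the class I pathway was followed in lists of named genes. Between each KO and its WT littermates, 0 genes of any list passed the adjusted threshold by edgeR. DESeq2 called 0 in the HP1α line and 2 in the HP1γ line, both lower in the KO: Erap1, which trims peptides in the endoplasmic reticulum (log2 fold change -0.22, adjusted p = 0.00904), and Gbp2, an interferon-induced GTPase (-0.32, adjusted p = 0.0342). In the HP1α line this covered 10 other class I or class I-like heavy chains, 10 loading and trimming genes, 6 immunoproteasome and proteasome activator genes, 3 constitutive proteasome genes, 16 regulators of class I transcription, 18 interferon-stimulated genes and 10 class II genes, of which 1 immunoproteasome and 1 interferon-stimulated gene had an unadjusted p under 0.05 by edgeR. Nlrc5, the class I transactivator, had 505.5 ± 17.5 CPM in the HP1α KO and 503.7 ± 26.3 CPM in WT, and Irf1, an interferon-induced activator of class I genes, 405.3 ± 32.3 and 415.7 ± 46.5 CPM (SD, n = 4). In the HP1γ line, Nlrc5 stood at 524.7 ± 20.7 CPM in the KO and 509.2 ± 51.5 CPM in WT and Irf1 at 457.3 ± 28.5 and 464.3 ± 43.4 CPM.

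Immunoproteasome and interferon-stimulated genes had mostly negative log2 fold changes in the HP1γ KO, none of which passed the adjusted threshold by edgeR. All 6 immunoproteasome and activator genes had a log2 fold change below 0, with a median of -0.18 against 0.00 for all genes, and 4 of them had an unadjusted p under 0.05, where 11.9% of all genes did (no adjusted p was under 0.05 by edgeR or DESeq2). Psmb8, a catalytic subunit that replaces a constitutive one under interferon, read 181.3, 177.8, 202.3 and 227.2 CPM in the KO and 217.3, 232.9, 214.4 and 248.5 CPM in WT (-0.20 ± 0.0874, adjusted p = 0.402). Psme1, a subunit of the activator that caps the proteasome, read 190.0, 197.6, 213.9 and 214.1 CPM against 239.6, 245.8, 210.4 and 225.8 CPM (-0.17 ± 0.0685, adjusted p = 0.387). Of 18 interferon-stimulated genes, 1 was above 0, the median was -0.15 and 3 had an unadjusted p under 0.05. Ifi27l2a differed by -0.21 ± 0.115 and Gbp4 by -0.05 ± 0.0732, the 2 most abundant of the list. The 10 loading and trimming genes had a median of -0.10, with Hspa5, the chaperone BiP, at -0.06 ± 0.103 and Calr, calreticulin, at -0.13 ± 0.0645.

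Between WT littermates, edgeR called few genes of these lists. Calr was lower in the HP1α line (486.5, 454.1, 505.1 and 495.3 CPM against 635.4, 650.0, 560.7 and 573.2 CPM, without overlap, log2 difference -0.32 ± 0.0711, adjusted p = 0.0192). Hspa5 was lower too (-0.34 ± 0.0969, adjusted p = 0.0447). These were 2 of the 10 loading and trimming genes, and Ifngr1, a chain of the interferon-γ receptor, was the 1 regulator of 16 called (-0.66 ± 0.184, adjusted p = 0.0426), where 12.8% of all genes were called. H2-Q2 was higher in the HP1α line (9.749 ± 2.47 against 6.076 ± 0.994 CPM, SD, n = 4, adjusted p = 0.0471), with the caution on shared reads given above, and Usp18, an interferon-induced protease, was higher at the threshold itself (0.77 ± 0.229). By edgeR, none of the immunoproteasome, constitutive proteasome or class II genes was called, and 1, 2 and 0 of them had an unadjusted p under 0.05. DESeq2 called Psmb9 (0.23, adjusted p = 0.0437) and Psmb5 (0.21, adjusted p = 0.0178) higher and Psmb7 (-0.32, adjusted p = 0.0206) lower in the HP1α line, and edgeR on all 16 samples called 2 of the 3 constitutive genes. Counts of called genes in these lists rest on single samples, since leaving out 1 sample brought each of them to 0 for at least 1 choice.

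Between knockouts, where line and lost gene cannot be told apart, differences were more frequent in the lists. Of 6 immunoproteasome and activator genes, 5 were higher in the HP1α KO and none lower, where 2399 of 15020 genes were higher. Psmb10 read 116.7, 115.2, 108.6 and 106.6 CPM in the HP1α KO and 69.54, 69.69, 83.26 and 84.91 CPM in the HP1γ KO, without overlap (0.54 ± 0.08, adjusted p = 0.00184). Psme1 read 254.4, 251.0, 253.0 and 256.0 CPM against 190.0, 197.6, 213.9 and 214.1 CPM (0.32 ± 0.0566, adjusted p = 0.00359), and Psme2, its partner in the activator, differed by 0.32 ± 0.0676 (adjusted p = 0.00619). The count was 5 whichever sample was left out and was 4 with limma on TPM. Of 18 interferon-stimulated genes, 7 were higher and 0 lower, between 4 and 8 when a sample was left out and 4 on the TPM scale. Usp18 had the largest difference of the list, at 9.809, 9.099, 8.948 and 6.697 CPM against 3.754, 3.405, 4.083 and 3.953 CPM (log2 difference 1.18 ± 0.146, adjusted p = 0.00102). Irf7, a regulator of type I interferon genes, differed by 0.40 ± 0.0909 (adjusted p = 0.00899) and Ifit3, an antiviral protein, by 0.70 ± 0.16 (adjusted p = 0.00947).

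Other parts of the pathway split between directions in the same comparison. Of 10 loading and trimming genes, 2 were higher and 3 lower: Tapbpl, a relative of tapasin, was higher (0.37 ± 0.0756, adjusted p = 0.00573), and Hspa5 (-0.35 ± 0.0844, adjusted p = 0.011) and Lnpep, a peptidase that trims peptides for class I (-0.28 ± 0.0768, adjusted p = 0.02), were lower. Of 3 constitutive catalytic subunits, Psmb5 was higher (0.36 ± 0.0718, adjusted p = 0.00513) and Psmb7 lower (-0.21 ± 0.0592, adjusted p = 0.0198). H2-T24, Mr1, which presents vitamin metabolites to MAIT cells, and Fcgrt, the neonatal Fc receptor, were the 3 of 10 other class I-like chains called, all higher (log2 differences 0.48 ± 0.141, 0.46 ± 0.14 and 0.52 ± 0.181), where 32.8% of all genes were called. Leaving out 1 sample brought this count to as few as 0, and with limma on TPM none of the list was called higher and H2-T10 was called lower (-0.17, adjusted p = 0.0426). Of 16 regulators, 3 were higher and 2 lower, with Rela, an NF-κB subunit, at -0.33 ± 0.09 (adjusted p = 0.0189), Irf2 at 0.22 ± 0.0636 (adjusted p = 0.0249) and Rfxank at 0.23 ± 0.0692 (adjusted p = 0.0274). On the TPM scale, 0 regulators were higher and 4 lower, Rela among them (-0.36, adjusted p = 0.00975), and with a replicate block 0 were higher and 1 lower. The loading and trimming genes were 1 higher and 5 lower on the TPM scale.

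**Figure D5:**
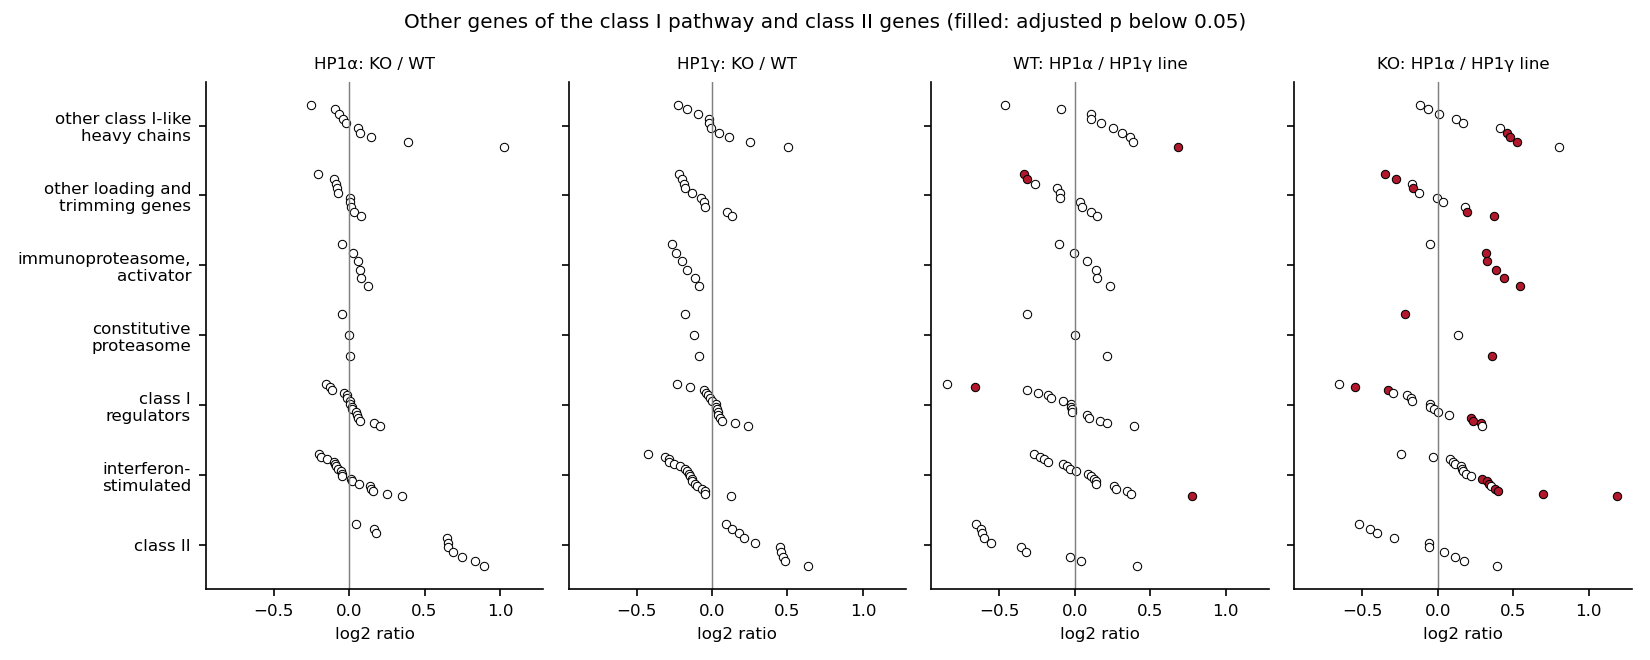
Log2 ratios of the tested genes of 7 lists (rows, 1 point per gene) in 4 comparisons; filled points have an adjusted p under 0.05. In the comparison of KO lines, 5 immunoproteasome and activator genes and 7 interferon-stimulated genes are filled to the right of 0, and no point is filled for KO against WT (all by edgeR).

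Class II genes, which T cells of the mouse hardly express, were followed as a measure of other cells. None of the 10 was called in any comparison, by edgeR or by the alternatives, although all 10 had log2 fold changes above 0 in both lines (median 0.65 in the HP1α line and 0.37 in the HP1γ line). Cd74, the invariant chain, read 84.68, 91.84, 222.0 and 339.9 CPM in the HP1α KO and 82.79, 62.94, 149.7 and 174.4 CPM in WT. Its largest value, 416.9 CPM, was that of HP1γ KO replicate 4, which also held the largest summed B cell markers (830.7 CPM). That sum includes Cd74, H2-Aa, H2-Ab1 and H2-Eb1 and is therefore not a separate measure. The summed myeloid and dendritic cell markers were also largest in this sample (195.5 CPM). The part of other cells in the class I values of that sample was not tested.

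Genes around the H2 members were also compared between lines. Only the members were left out of the regions, so that genes of the lists above lying there were counted again. Within 1 Mb of the members on chromosome 17 (chr17:33134873-37353650), 19 of 148 genes tested were called between WT littermates, 12.8%, in total the same share as among all genes. Of these, 14 were higher and 5 lower in the HP1α line, where 4.55% of all genes were called higher and 8.25% lower. The lowest p-values belonged to Zfp472 (-0.82, adjusted p = 0.00524), Angptl4 (-1.13, adjusted p = 0.00793), Ddx39b (0.34, adjusted p = 0.00998), Rgl2 (0.48, adjusted p = 0.0142) and Neu1 (0.31, adjusted p = 0.0144). Between knockouts, 54 of 151 were called (35.8%, against 32.8% of all genes), 43 higher and 11 lower. The leading ones were Rgl2 (0.65), Neu1 (0.43), Rps18 (0.42), Rps28 (0.45) and Pfdn6 (0.45). The median log2 difference in this region was 0.10 between WT littermates and 0.20 between knockouts, against 0.02 and 0.01 for all genes. Within 1 Mb of B2m (chr2:120977957-122983594), a region chosen after B2m was seen to differ, 4 of 32 genes were called between WT littermates (12.5%) and 5 of 31 between knockouts (16.1%). In the HP1α line, 1 was higher and 3 lower between WT littermates, and 3 higher and 2 lower between knockouts. Eif3j1 (-0.46 and -0.62) and Slc30a4 (-0.84 and -0.89) were lower in both comparisons, as B2m was. Slc28a2 (0.25 and 0.17) was higher in both. By edgeR, no gene of either region was called between KO and WT.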

How the data were processed

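The data are RNA-Seq of memory CD4+ T cells from spleen in 16 samples. Per the methods of the paper, paired reads of 150 bp from a stranded mRNA kit were trimmed with Trim Galore 0.6.7, aligned to GRCm39 (Ensembl release 107) with STAR 2.7.10a and quantified with Salmon 1.5.2 in nf-core/rnaseq 3.9. The authors deposited estimated counts per gene without normalization, of which 11.6% were not whole, and TPM, which correct for transcript length and keep no depth. Salmon divides reads that match several genes by a model, which bears on the H2-Q and H2-T genes.

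Estimated counts were rounded and tested with edgeR 4.0.16 in R 4.3.3 (TMM, filterByExpr with a minimum count of 10, quasi-likelihood test, Benjamini-Hochberg adjustment over all genes tested). Each pair of groups was fitted on its 8 samples, the interaction on all 16. Called means an adjusted p under 0.05. Intervals are 95% confidence intervals of the fit. No member passed the study's further threshold of an absolute log2 fold change above 1. The alternatives were DESeq2 1.42.0, RLE size factors, a robust fit, no filter, a minimum of 10 counts in each sample, a block for the replicate number, a joint fit of the 16 samples, limma 3.58.1 on log2(TPM + 0.1) and log2(TPM + 1) where the mean TPM was 1 or more, H2-Q and H2-T genes summed, and the omission of each sample. The tests were tested on simulated data. All pairs of replicates differed by more than sampling noise. Groups come from the submitters' titles and genotype labels. An RNA-Seq sample that the paper excluded could not be matched to a label, and all 16 samples were used.

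The members and lists were chosen with earlier results of these data known. Named genes are all 10 members, up to 3 called genes per list and comparison with the smallest p or, with none called, the 2 most abundant, the 5 genes most like the members, and up to 5 neighbours by p. Further genes and the choice of list values shown per sample followed after their values were seen. Sequences came from the GRCm39 genome with GENCODE annotation and from RefSeq promoters of GRCm38.p6.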

Additional observations from a re-analysis of the deposited data

Results flagged for a closer look

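Of 48 groups of 4 samples looked at (10 members, the summed heavy chains and the ratio of B2m to them in each group), 4 held a sample whose gap to the nearest other sample took up most of the group's range. Chance alone flags about 1 in 20 groups. H2-Q4 was 847.2 CPM in HP1γ WT replicate 1, where the nearest other sample had 950.0 CPM. The same sample had the lowest summed heavy chains of its group, 10110 CPM, with the nearest at 10770 CPM. B2m per heavy chain count was 0.1417 in HP1α KO replicate 3, with the nearest at 0.1504, and 0.1817 in HP1α WT replicate 2, with the nearest at 0.1524.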

How the results depend on the processing

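Number of members called stayed at 0 for both comparisons of KO with WT and for the interaction under every alternative and with any sample left out, and no called member changed sign. Between WT littermates, the number was 1, 2 (B2m and H2-D1) with DESeq2 and with all 16 samples in one fit, 1 under 7 further alternatives, and from 0 to 1 with a sample left out. Between knockouts it was 3, 5 with limma on either TPM scale, and from 1 to 4 with a sample left out. Under the other settings without a block it was 2 or 3, with B2m lost without a filter (adjusted p = 0.218), in the robust fit (0.0543) and with all 16 samples in one fit (0.0566), where Tapbp was called (0.0245). The cause was not tested. Tapbp was also called between knockouts without HP1γ KO replicate 3 or 4 (0.0345 and 0.0383), and H2-Q4 without HP1α KO replicate 3 (0.0424). Over all genes, 1896 calls between WT littermates became 573 to 2185 with a sample left out, 2835 with DESeq2, 1135 and 1143 with limma, and 49 calls of HP1γ KO against WT became 30 to 49, 255, 17 and 20, with 96 in the fit of all 16 samples, 31 with the stricter filter and 73 without one. The 8 calls of the interaction became 72 with DESeq2, 4 and 3 with limma and 14 without a filter, and the 0 calls of the HP1α line became 5, 3 and 3, and 1 without a filter.

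Same-numbered samples of KO and WT deviated together by correlations of 0.0797 to 0.271 in the HP1α line and -0.00663 to 0.186 in the HP1γ line, and of the 2 lines by -0.195 to 0.0844. At most 2 of 4 pairs in a comparison were above 0.1, and at most 2 of 4 correlated best with their own number, so that the numbers were not taken to pair samples. Sets of several numbers are not seen this way. In the HP1γ line, replicates 1 and 2 were alike (chi-square per gene 14.3 in WT and 10.4 in the KO), as were 3 and 4 (13.7 and 19.2). Pairs across these sets had 32.6 to 41.0 in WT and 25.7 to 38.9 in the KO. Summed myeloid and dendritic markers were 54.55, 57.87, 141.5 and 116.9 CPM in the HP1α KO and 49.32, 46.94, 106.5 and 109.1 CPM in its WT. In the HP1γ line they were 135.6, 93.8, 80.32 and 195.5 CPM in the KO and 68.81, 124.8, 75.25 and 40.15 CPM in WT. A sort or batch shared by number, or by such a set of numbers, was not tested. A replicate block left 0 members called between WT littermates (all genes: 577 calls in place of 1896), 1 between knockouts (H2-T23; 4132 calls in place of 4921) and 0 elsewhere. Widening or narrowing the region around B2m to 2 or 0.5 Mb gave 9 of 50 and 2 of 12 genes called between knockouts, in place of 5 of 31. Of all genes, 32.8% were called. Between WT littermates it gave 6 of 50 (12%) and 3 of 13 (23.1%), in place of 4 of 32, against 12.8% of all genes. Summing the H2-Q and the H2-T genes left no H2-T call between knockouts (log2 difference 0.14, adjusted p = 0.0676 by edgeR), where H2-T23 alone was called. How far shared sequence moves the value of each single H2-Q or H2-T gene was not measured.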

Other observations

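Some partners of the members showed patterns that no list count brings out, and they are given as values chosen after they were seen. Erap1, the peptidase that trims class I peptides in the endoplasmic reticulum, read 88.96, 90.43, 94.79 and 93.61 CPM in the HP1γ KO and 109.0, 108.8, 104.3 and 108.6 CPM in its WT littermates, without overlap. Its log2 fold change was -0.22 (unadjusted p = 0.00181 and adjusted p = 0.174 by edgeR, adjusted p = 0.00904 by DESeq2 and 0.689 by limma on log2(TPM + 1)), and 7.10% of all genes did not overlap in this comparison. In the HP1α line, Erap1 overlapped, at 81.36 to 100.0 CPM in the KO and 87.75 to 116.9 CPM in WT. Tap2, the second subunit of the transporter, read 349.9, 351.6, 347.6 and 352.1 CPM in the HP1α KO and 340.8, 327.4, 328.4 and 326.9 CPM in WT, without overlap, which held for 2.96% of all genes (log2 fold change 0.08, unadjusted p = 0.085 and adjusted p = 0.946 by edgeR). In the HP1γ line it overlapped, with 286.9 to 343.0 CPM in the KO and 304.0 to 340.5 CPM in WT. Whether these effects differ between lines passed no adjusted threshold for either gene.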
